A study of Mus musculus with 4 samples.

Results

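Cadherins are calcium-dependent adhesion proteins of the cell surface. The classical ones bind a partner cadherin on the next cell and hold catenins at the inner face of the membrane. When the nephron forms, progenitors of the cap mesenchyme condense and turn into epithelium, and the cadherins they carry change along the way. Cdh11 is a cadherin of mesenchyme, Cdh4 and Cdh6 appear in the condensing and early epithelial nephron, and Cdh1 and Cdh16 belong to tubule and ureteric epithelium. The cadherins described here are the 8 genes chosen by symbol out of 52636 gene identifiers counted: Cdh1, Cdh2, Cdh3, Cdh4, Cdh6, Cdh11, Cdh13 and Cdh16. Cdh1 to Cdh4 encode the type I classical cadherins E-, N-, P- and R-cadherin, and Cdh6 and Cdh11 encode type II classical cadherins. Cdh13 (T-cadherin) is held by a lipid anchor and lacks the cytoplasmic tail, and Cdh16 (Ksp-cadherin) has only a short one, so neither is classical in the strict sense.

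The data are RNA sequencing libraries of mouse kidney cells collected with a fluorescence-activated sorter, 2 labelled control and 2 labelled Brg1-cKO, each from 3000 cells. Brg1, encoded by Smarca4, is an ATPase of the SWI/SNF chromatin remodelling complexes, and cKO stands by usual usage for conditional knockout. The series title names Eya1, Six2 and the nephron progenitor pool. The deleting allele, the sorting marker, the age and whether the replicates are separate animals are not given in the sources used here. The p-values thus rest on a spread between libraries that may be technical.

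The libraries held 35411905 and 37999342 gene counts in control and 14645665 and 10922272 in Brg1-cKO. Uniquely aligned reads that fell outside the counted features made up 15.9% ± 0.774 (SD, n = 2) in control and 53.4% ± 5.47 (SD, n = 2) in Brg1-cKO, and their part in the results was not tested. Smarca4, the targeted gene, stood at 898 and 937 CPM (counts per 1000000 scaled counts of the library) in control and at 760.1 and 691 CPM in Brg1-cKO (log2 fold change -0.34, SE 0.090, adjusted p = 0.167 in edgeR's quasi-likelihood test), and the counts can include exons outside a deleted part. Xist, which is transcribed from the inactive X chromosome, stood at 244 and 217 CPM in control and 836 and 1205 CPM in Brg1-cKO. The Y-linked Ddx3y stood at 76.0 and 78.8 CPM in control and at 1.05 and 3.27 CPM in Brg1-cKO. The sex of the cells and the genotype cannot be told apart here. The unaligned share of reads was 23.4% ± 2.92 in Brg1-cKO against 6.50% ± 0.262 in control (SD, n = 2). Across the tested genes, log2 levels correlated at 0.826 between the Brg1-cKO libraries, at 0.992 between the controls and at 0.872 to 0.878 across groups, as a description. Genes at a mean of 10 CPM or more differed by a median of 1.07 times between the controls and of 1.59 times between the Brg1-cKO libraries. All 13 listed markers of nephron progenitors had counts in each group. Pax2 among them stood at 598 and 595 CPM in control and at 675 and 667 CPM in Brg1-cKO.

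The contrast between Brg1-cKO and control asks whether these cadherins differ where Brg1 was targeted. Cdh4 and Cdh6, the cadherins of the early nephron, stood higher in Brg1-cKO, with no overlap between the groups, by 1.91 times and 1.52 times. Cdh11, Cdh3 and Cdh16 stood lower, by 1.49, 1.47 and 2.30 times, and Cdh13 had no counts at all in Brg1-cKO. Cdh1 and Cdh2 differed little, with means in Brg1-cKO at 0.952 and 0.936 of control. None of these differences passed the adjusted threshold of 0.05 (edgeR, quasi-likelihood test). Of all 18172 genes tested, 0 passed as well (0%), so the share of the cadherins called, 0 of 8, equals the background. At an unadjusted p under 0.05, 2 of the 8 were higher (Cdh4 and Cdh6) and 3 were lower (Cdh11, Cdh13 and Cdh16), where 5.44% of all tested genes were higher and 12.9% lower. The groups did not overlap for 7 of the 8, higher for 2 and lower for 5, where 17.5% of all tested genes lay wholly higher and 34.5% wholly lower. Among genes at a mean of 10 CPM or more, which leaves out Cdh13 and many genes near 0 in Brg1-cKO, these shares were 23.6% and 25.5%, and 7.31% were higher and 5.17% lower at an unadjusted p under 0.05. The median log2 fold change was -0.32 over the 8 cadherins and -0.060 over all genes tested. An exact permutation test of 2 against 2 libraries cannot go below a two-sided p of 0.333. All 8 passed the filter on low counts, Cdh13 only through the controls, so it had to be among those lower.

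**Figure D1:**
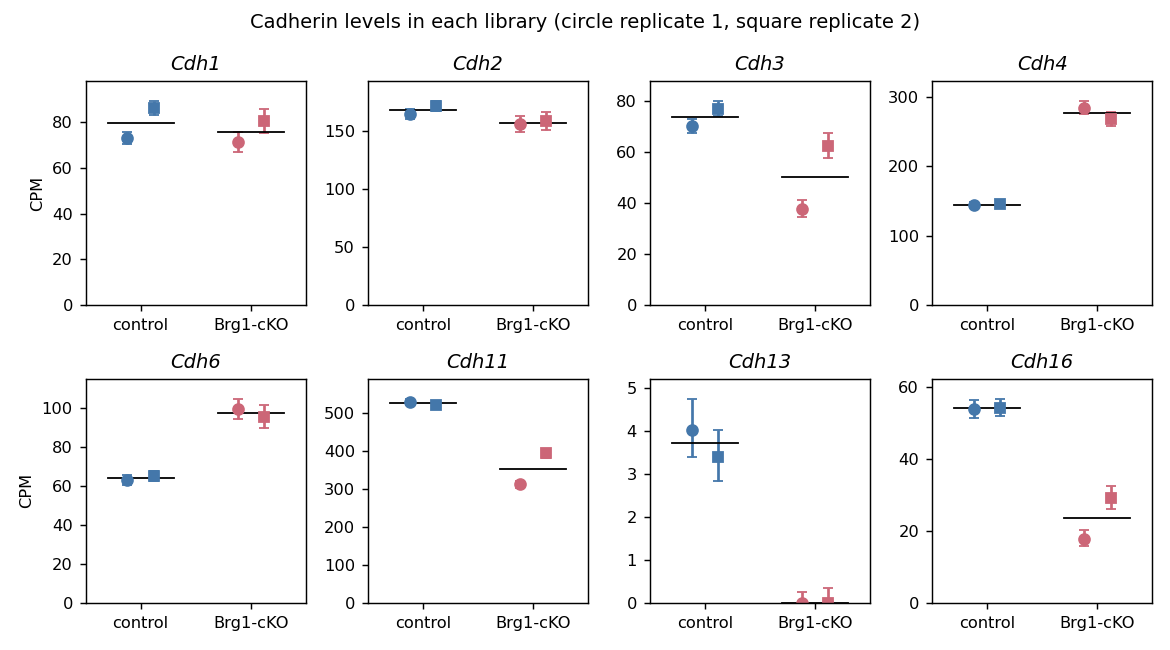
Level of each of the 8 cadherins in CPM (vertical axis, from 0) in the 2 control and 2 Brg1-cKO libraries, with the group mean as a line and exact 95% Poisson counting intervals as bars. Cdh4 and Cdh6 sit higher in both Brg1-cKO libraries, Cdh3, Cdh11 and Cdh16 sit lower, Cdh13 is at 0 in both, and the Cdh1 groups overlap.

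Cdh4 encodes R-cadherin, a type I cadherin found in the induced nephron. It stood at 144 and 146 CPM in control and at 285 and 268 CPM in Brg1-cKO. Both Brg1-cKO libraries were far above both controls, and the 2 libraries of each group lay close together. Its log2 fold change was 0.93 (SE 0.12), with a 95% interval from 0.59 to 1.27, and its adjusted p was 0.166 (edgeR, quasi-likelihood test). The same gene passed in DESeq2 (adjusted p = 9.55e-06), where 3.58% of genes were called higher, and in edgeR's likelihood ratio test (adjusted p = 0.00393), where 3.03% were. DESeq2 gave no adjusted p to 2819 of the 18172 genes, and its share counts them as not called. With the replicate number as a block its adjusted p was 0.0803, and with limma-voom it was 0.0705. Cdh4 lies on chromosome 2 from 179442431 to 179899373 (mm10, GENCODE M21, plus strand).

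Cdh6 encodes K-cadherin, a type II cadherin of the early nephron and of proximal tubule precursors. It stood at 63.0 and 64.9 CPM in control and at 99.3 and 95.4 CPM in Brg1-cKO, so the groups were again apart and each pair was tight. The log2 fold change was 0.61 (SE 0.19), with a 95% interval from 0.091 to 1.12 (adjusted p = 0.211 in edgeR's quasi-likelihood test). The Brg1-cKO libraries differed by only 1.04 times for this gene and by 1.06 times for Cdh4. Such a small gap placed these genes at percentiles 4.99 and 7.76 of the genes at a mean of 10 CPM or more, counted from the tightest.

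Of the 8 cadherins, 1 had a start window in the RefSeq promoter table used here (build GRCm38.p6), and it was Cdh6, one of the 2 that stood higher. Its 250 bases before the start are shown because they are the regulatory sequence next to a difference described here. They lie at chr15:13173676-13173925 on the minus strand, and capitals mark the matches to the motifs searched.
Cdh6: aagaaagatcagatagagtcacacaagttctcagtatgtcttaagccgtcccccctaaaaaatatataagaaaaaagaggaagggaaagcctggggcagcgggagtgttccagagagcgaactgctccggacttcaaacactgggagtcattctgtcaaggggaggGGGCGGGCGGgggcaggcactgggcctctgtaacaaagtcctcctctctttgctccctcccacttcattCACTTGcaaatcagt
The window held 2 overlapping GC boxes (GGGCGG), from base -84 to -75 before the start, and 1 E-box (CANNTG), from base -15 to -10. On both strands, a GC box was found in 33.0% of 32536 promoters of this length and an E-box in 66.2%. The window held no match to the E-box form CAGGTG, which Snail and Zeb repressors bind and which overlaps CANNTG (17.3% of promoters held it). It likewise had no match to TATAAA (12.3%), to the TCF/LEF core CTTTGAT (3.21%) or to the AP-1 form TGANTCA (6.73%). These matches describe the letters in this window only. Its GC content of 51.2% was near the median of 52.4% over all those promoters.

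Beside Cdh4 and Cdh6 stand the markers of the early nephron. The 11 listed genes summed to 1503 and 1502 CPM in control and to 2676 and 2471 CPM in Brg1-cKO, and all 11 had counts in each group. Podocyte markers summed to 812 and 814 CPM in control and to 3085 and 2951 CPM in Brg1-cKO, with none at 0 in both libraries. At an unadjusted p under 0.05, 7 of 11 early nephron and 9 of 11 podocyte markers were higher and 0 lower, where 5.44% of all tested genes were higher and 12.9% lower. Of the early nephron markers 8 lay wholly higher and 2 wholly lower, of the podocyte markers 10 and 0, and 0 of either list passed after adjustment in edgeR's quasi-likelihood test. The part of these cells in the Cdh4 and Cdh6 values was not tested. In bulk RNA of sorted cells, a change in the number of cells of a type and a change in RNA per cell cannot be told apart, and this holds for each cadherin described here. Wnt4, the signal that drives progenitors into epithelium, stood at 206 and 202 CPM in control and at 470.1 and 370.3 CPM in Brg1-cKO. Podxl, the podocyte sialomucin, stood at 279 and 282 CPM in control and at 1755 and 1359 CPM in Brg1-cKO.

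Cdh11 encodes OB-cadherin, a type II cadherin of mesenchyme, and it was the most abundant of the 8 in control. It stood at 529.6 and 523 CPM in the controls and at 313 and 394 CPM in Brg1-cKO. Both Brg1-cKO libraries were below both controls, but they differed from each other by 1.26 times, against 1.01 times between the controls. The log2 fold change was -0.57 (SE 0.15), with a 95% interval from -0.99 to -0.16 (adjusted p = 0.167 in edgeR's quasi-likelihood test). In DESeq2 the adjusted p was 0.0584. The 13 listed stromal markers summed to 1934 and 1918 CPM in control and to 1222 and 1245 CPM in Brg1-cKO. Of these 13, only Ren1 was at 0 counts in both Brg1-cKO libraries, and 5 were lower and 0 higher at an unadjusted p under 0.05 (12.9% and 5.44% of all tested genes), with 0 past the adjusted threshold in edgeR's quasi-likelihood test. Mesenchymal markers summed to 5551 and 5594 CPM in control and to 4228 and 3948 CPM in Brg1-cKO, while single members lay on either side: of 11 tested, 4 lay wholly higher and 5 wholly lower, with a median log2 fold change of -0.13. S100a4 was at 0 counts in all 4 libraries. The part of stromal cells in the Cdh11 value was not tested.

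Cdh2 encodes N-cadherin, a type I cadherin of mesenchyme that also stays in proximal tubule epithelium. It stood at 165 and 171 CPM in control and at 156 and 159 CPM in Brg1-cKO. The groups did not overlap, yet the gap between them was small, at 1.07 times. The log2 fold change was -0.10 (SE 0.13), with a 95% interval from -0.47 to 0.27 (adjusted p = 0.795 in edgeR's quasi-likelihood test). The interval covers folds from 0.724 to 1.21, so Cdh2 differed from control by less than these libraries could resolve. Its Brg1-cKO libraries were the closest pair of the 7 cadherins with counts in both groups, at 1.02 times.

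Cdh1 encodes E-cadherin, the type I cadherin of epithelium. It stood at 73.1 and 86.1 CPM in control and at 71.1 and 80.4 CPM in Brg1-cKO, so the groups overlapped. The control libraries differed from each other by more than counting error, with 95% Poisson intervals from 70.3 to 75.9 CPM and from 83.2 to 89.1 CPM. No difference between the groups was detectable beyond this spread: the log2 fold change was -0.071 (SE 0.22), with a 95% interval from -0.66 to 0.52 (adjusted p = 0.915 in edgeR's quasi-likelihood test). Epithelial markers summed to 677 and 648 CPM in control and to 581 and 642 CPM in Brg1-cKO. Of those 14 genes, 10 lay wholly lower and 2 wholly higher in Brg1-cKO, where 34.5% and 17.5% of all tested genes did, and Cldn3 was at 0 counts in both Brg1-cKO libraries. The median log2 fold change of the 14 was -1.52, with 12 below 0 and 2 above. At an unadjusted p under 0.05, 4 were lower and 0 higher (12.9% and 5.44% of all tested genes). After adjustment 0 passed in edgeR's quasi-likelihood test. The most abundant of them, Tjp1, encodes the tight junction scaffold ZO-1 and was 1 of the 2 wholly higher. Tjp1 stood at 332 and 294 CPM in control and at 412 and 378 CPM in Brg1-cKO, the largest part of the sum.

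Cdh3 encodes P-cadherin, a type I cadherin of epithelia. It stood at 70.1 and 77.0 CPM in control and at 37.9 and 62.5 CPM in Brg1-cKO. Both Brg1-cKO libraries were below both controls, with replicate 1 much the lower. The Brg1-cKO libraries differed by 1.65 times, more than the 1.47 times between the group means. The log2 fold change was -0.55 (SE 0.33), with a 95% interval from -1.49 to 0.38 (adjusted p = 0.515 in edgeR's quasi-likelihood test). Without Brg1-cKO replicate 1 the value was -0.26, and without replicate 2 it was -0.98, so its size rested on which of the 2 libraries was read. Cdh3 and Cdh1 are neighbours on chromosome 8, in the same orientation, with Cdh3 from 106510891 to 106557297 and Cdh1 from 106603351 to 106670246. The gap between them is 46.1 kb. The difference between the fold changes of these neighbours was not tested.

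Cdh16 encodes Ksp-cadherin, the kidney-specific cadherin of tubule and ureteric epithelium. It stood at 53.9 and 54.3 CPM in control and at 17.8 and 29.1 CPM in Brg1-cKO. Both Brg1-cKO libraries were below both controls, and replicate 1 was again the lower of the pair, by 1.64 times. The log2 fold change was -1.20 (SE 0.37), with a 95% interval from -2.24 to -0.17 (adjusted p = 0.215 in edgeR's quasi-likelihood test). It was -0.92 without Brg1-cKO replicate 1 and -1.62 without replicate 2. Ureteric bud markers summed to 367 and 365 CPM in control and to 350.2 and 204 CPM in Brg1-cKO. Of 12 tested, 4 were lower and 0 higher at an unadjusted p under 0.05 (12.9% and 5.44% of all tested genes), 6 lay wholly lower and 2 wholly higher, 0 passed after adjustment in edgeR's quasi-likelihood test, and the median log2 fold change was -0.91. In Brg1-cKO this sum was lower in replicate 2 and Cdh16 was lower in replicate 1, and a link between them was not tested. Calb1, Wnt9b, Wnt7b and Upk3a, 4 of the 14 listed, were at 0 counts in both Brg1-cKO libraries, Upk3a in the controls as well. Distal tubule markers summed to 130.1 and 136 CPM in control and to 256 and 346 CPM in Brg1-cKO. Umod and Kcnj1 of the 11 were at 0 in both Brg1-cKO libraries. The 8 tested had a median log2 fold change of 0.52, with 6 above 0 and 2 below. At an unadjusted p under 0.05, 2 of them were higher and 0 lower (5.44% and 12.9% of all tested genes), with 0 past the adjusted threshold. The part of ureteric and tubule cells in the Cdh16 value was not tested.

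Cdh13 encodes T-cadherin, which is known from endothelium and smooth muscle. It had 144 and 131 counts in control, or 4.02 and 3.40 CPM, and 0 counts in both Brg1-cKO libraries. At the control level, 53.1 and 39.7 counts would have been read there. The upper limit behind such a 0 is 3 counts, which is 0.210 and 0.280 CPM in the 2 Brg1-cKO libraries. Taking 3 counts over the group as the floor, Cdh13 was at least 30.9-fold lower in Brg1-cKO as far as counting error goes. That bound leaves out the spread between libraries. In edgeR's quasi-likelihood test the 95% interval of the log2 fold change ran from -16.0 to -3.01 (adjusted p = 0.166). It passed the filter through the controls alone, so a lower value was the one difference it could show, and its place among the lower cadherins supports nothing. edgeR's likelihood ratio test called it lower, as it did 10.6% of all genes. Endothelial markers summed to 802 and 816 CPM in control and to 544 and 419 CPM in Brg1-cKO, and none of the 13 was at 0 in both libraries. At an unadjusted p under 0.05, 5 of them were lower and 1 higher, where 12.9% and 5.44% of all tested genes were, and 0 passed after adjustment in edgeR's quasi-likelihood test. The part of endothelial cells in the Cdh13 value was not tested.

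With 1 Brg1-cKO library left out, the fit took the spread of the remaining one from the controls, and calls were common over all genes. Without replicate 1, 5 of the 8 cadherins passed, 2 higher (24.6% of all genes) and 3 lower (30.9%). Without replicate 2, 6 passed, 2 higher (23.9%) and 4 lower (36.6%). Cdh4, Cdh6, Cdh11, Cdh13 and Cdh16 passed both times and Cdh3 only without replicate 2, and shares this near the background say little about the cadherins.

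**Figure D2:**
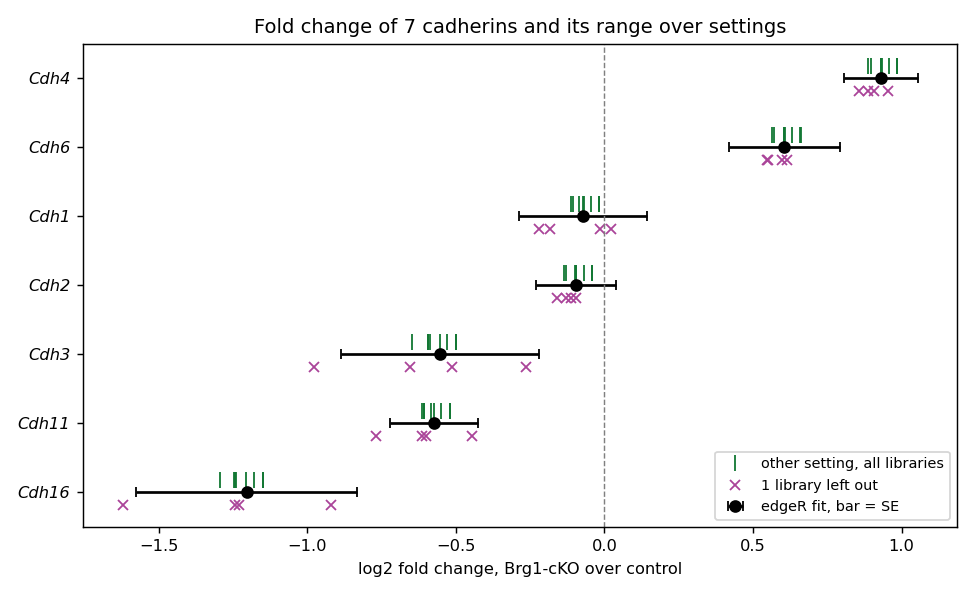
Log2 fold change of Brg1-cKO over control (horizontal axis) for the 7 cadherins with counts in both groups, with the edgeR estimate and its SE, the values under other settings, and the values with 1 library left out. Cdh4 and Cdh6 stay above 0 and Cdh2, Cdh3, Cdh11 and Cdh16 below 0 at every point, whereas Cdh1 crosses 0 at 0.022 without control replicate 2.

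Levels of different genes were compared as CPM per kilobase of annotated exon. In control the order was Cdh11 at 59.1 ± 0.548, Cdh2 at 20.8 ± 0.583, Cdh4 at 20.0 ± 0.146, Cdh1 at 17.4 ± 2.02, Cdh3 at 16.8 ± 1.12, Cdh16 at 14.3 ± 0.0726, Cdh6 at 7.09 ± 0.147 and Cdh13 at 0.330 ± 0.0395 CPM per kilobase (SD, n = 2). Only Cdh1 and Cdh3, among neighbours in this order, overlapped between libraries. In Brg1-cKO the order was Cdh11 at 39.7 ± 6.47, Cdh4 at 38.1 ± 1.64, Cdh2 at 19.5 ± 0.234, Cdh1 at 16.6 ± 1.44, Cdh3 at 11.4 ± 3.97, Cdh6 at 10.8 ± 0.307 and Cdh16 at 6.19 ± 2.11 CPM per kilobase, with Cdh13 at 0. There the libraries of Cdh11 and Cdh4 overlapped, as did those of Cdh3 and Cdh6. Cdh4 thus moved from the third place, well below Cdh11, to a level that could not be separated from it.

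The 8 cadherins together summed to 153 and 158 CPM per kilobase in control and to 134 and 151 in Brg1-cKO. The shares of that sum, unlike the sum, do not depend on how libraries are scaled, and Cdh4 took 13.0% and 12.7% in the controls and 29.4% and 24.4% in Brg1-cKO. Cdh6 took 4.56% and 4.55% in control and 8.24% and 7.0% in Brg1-cKO. Cdh11 took 38.8% and 37.1% in control and 26.3% and 29.3% in Brg1-cKO, and Cdh16 took 9.27% and 9.04% against 3.52% and 5.09%. Cdh3 took 10.4% and 11.1% in control and 6.47% and 9.44% in Brg1-cKO. For these 5 genes the groups did not overlap. The shares of Cdh1 (10.4% and 11.9% in control, 11.6% and 11.6% in Brg1-cKO) and of Cdh2 (13.3% and 13.4% in control, 14.5% and 13.0% in Brg1-cKO) overlapped. Shares of 1 sum are tied to each other, so a higher share of one gene lowers the others.

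**Figure D3:**
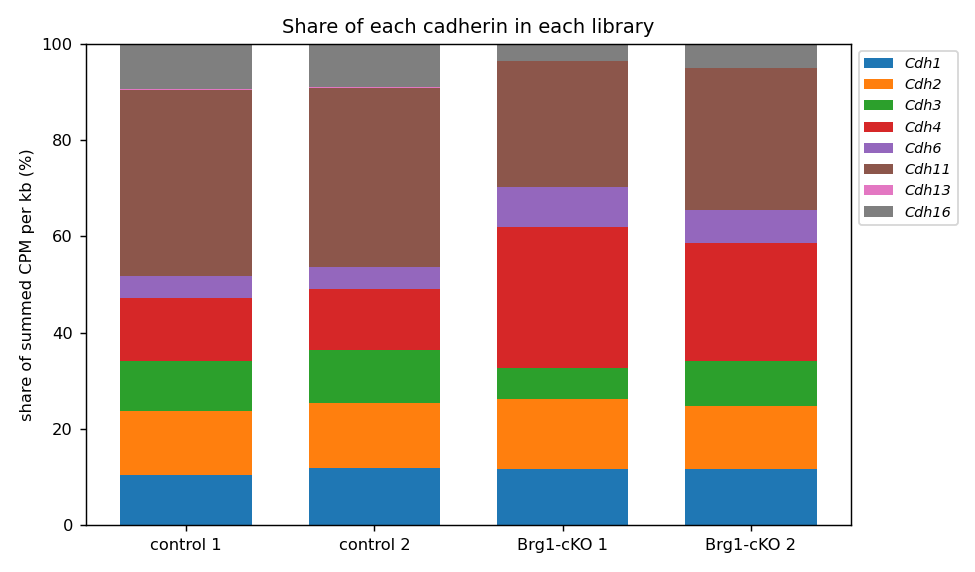
Share of each cadherin (percent, vertical axis) in the summed CPM per kilobase of the 8 cadherins, as 1 stacked bar for each library. Cdh11 is the largest part of both controls, and Cdh4 takes 29.4% and 24.4% in the Brg1-cKO libraries against 13.0% and 12.7% in the controls.

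Profiles were compared across the 4 libraries as log2(CPM + 1), each centred on its own control mean, over 9829 other genes at a mean of 10 CPM or more, without predicted, clone-named or mitochondrial genes. Among the cadherins themselves the closest pairs were Cdh1 with Cdh2 (distance 0.17), Cdh3 with Cdh11 (0.29) and Cdh4 with Cdh6 (0.46). Cdh4 and Cdh16 were the farthest apart (3.07). The genes nearest to Cdh6 were Lamb1, a laminin chain of basement membrane (distance 0.029), and Jag1, a Notch ligand of the early nephron (0.048). Those nearest to Cdh4 were Nob1 (0.048) and Tm9sf1 (0.064), and those nearest to Cdh11 were Klf11 (0.0097) and Cmtm6 (0.048). For Cdh16 they were Tmem126a (0.056) and Ccdc82 (0.070), for Cdh3 Rexo2 (0.023) and Stoml2 (0.035), for Cdh2 Slc9a3r1 (0.014) and Slc7a6 (0.023), and for Cdh1 Slc4a2 (0.072) and Tmod3 (0.081). With 4 libraries many genes share such a profile: 49 lay within 0.2 of Cdh4, 124 of Cdh6 and 117 of Cdh11.

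Among the other classical-type cadherins, 9 of the 14 listed were tested, and 0 passed the adjusted threshold in edgeR's quasi-likelihood test. At an unadjusted p under 0.05, 3 were lower (Cdh5, Cdh15 and Cdh26) and 0 higher. Over all tested genes, 12.9% were lower and 5.44% higher. Cdh15 had 0 counts in both Brg1-cKO libraries, and Cdh26 had 1 and 0. Both passed the filter through the controls alone, so a lower value was the one difference they could show. Cdh5, the VE-cadherin of endothelium, was the most abundant, at 163 and 153 CPM in control and at 74.1 and 32.1 CPM in Brg1-cKO. Its log2 fold change was -1.57 (SE 0.46, adjusted p = 0.203 in edgeR's quasi-likelihood test). Cdh5 is itself 1 of the 13 endothelial markers, so the sums given with Cdh13 include it. Cldn5 on that list was wholly higher, at 62.9 and 68.4 CPM in control and at 123 and 159 CPM in Brg1-cKO. It was the 1 gene so placed, while 9 lay wholly lower (17.5% and 34.5% of all tested genes). Cdh24, a type II cadherin, stood at 37.8 and 39.7 CPM in control and at 107 and 37.1 CPM in Brg1-cKO, so only 1 library was high. Cdh9 and Cdh10 were at 6.15 CPM or less in every library. Cdh11, Cdh16, Cdh3, Cdh1 and Cdh13 all lie on chromosome 8, as does Cdh5.

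The catenins, which bind the tails of classical cadherins, and other adherens junction genes made a list of 18. At an unadjusted p under 0.05, 2 were higher and 1 lower (5.44% and 12.9% of all tested genes). After adjustment 0 passed in edgeR's quasi-likelihood test. The lower one, Ctnna2, had 27 and 34 counts in control and 0 in both Brg1-cKO libraries. It passed the filter through the controls alone, so it had to be lower. Of the 2 higher, Ctnna3 had only 6 and 16 counts in control, and 66 and 55 in Brg1-cKO. It passed the filter only with the help of the Brg1-cKO libraries, where it was high. Its place among the higher genes thus supports nothing. The median log2 fold change of the 18 genes was -0.30, against -0.060 over all tested genes. Ctnnb1, which encodes beta-catenin, stood at 928 and 901 CPM in control and at 917 and 816 CPM in Brg1-cKO. Ctnna1, which encodes alpha-catenin and links the complex to actin, stood at 513 and 509 CPM in control and at 525 and 631 CPM in Brg1-cKO, a log2 fold change of 0.18 (SE 0.12, adjusted p = 0.580). Afdn, which encodes the nectin partner afadin, stood at 264 and 250.4 CPM against 229 and 166 CPM. Nectin2 overlapped, at 139 and 141 CPM in control and 133 and 231 CPM in Brg1-cKO.

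Transcription factors of the Snail, Zeb, Twist and E-protein families, and Klf8, known as repressors of Cdh1, lay mostly lower. Of the 10 listed, 9 were tested, 7 lay wholly below control and 0 wholly above, where 34.5% of all tested genes lay wholly lower. At an unadjusted p under 0.05, 2 were lower (Zeb2 and Twist2) and 0 higher, where 12.9% and 5.44% of all tested genes were. After adjustment 0 passed in edgeR's quasi-likelihood test. Twist2 had 86 and 92 counts in control and 0 in both Brg1-cKO libraries. It passed the filter through the controls alone, so it had to be among those lower. Klf8, also wholly lower, had 128 and 175 counts in control and 0 and 7 in Brg1-cKO. Zeb2 stood at 195 and 196 CPM in control and at 100.3 and 96.7 CPM in Brg1-cKO, a log2 fold change of -0.99 (SE 0.14, adjusted p = 0.166). Zeb1 stood at 92.6 and 97.6 CPM in control and at 83.5 and 39.6 CPM in Brg1-cKO. Tcf4 stood at 281 and 285 CPM against 211 and 262 CPM. Tcf3 overlapped between the groups, at 573 and 549.7 CPM in control and 654 and 483 CPM in Brg1-cKO. Zeb2 is also expressed in stroma and endothelium, whose marker sums were lower in the same libraries, and the part of those cells in its value was not tested.

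Of 14 epithelial transcription and splicing factors, 2 were higher and 3 lower at an unadjusted p under 0.05. Over all tested genes, 5.44% were higher and 12.9% lower. After adjustment 0 of the 14 passed in edgeR's quasi-likelihood test. The 3 lower ones, Ovol2, Ehf and Elf3, had 0 counts in both Brg1-cKO libraries. They passed the filter through the controls alone, so a lower value was the one difference they could show. Hnf4a, the proximal tubule factor, differed widely between the Brg1-cKO libraries, at 5.73 and 42.5 CPM, against 25.2 and 28.0 CPM in control. Klf4 also spread on both sides of control, at 176 and 66.4 CPM, where the controls were at 116 and 119 CPM. Tfcp2l1, a factor of the collecting duct, stood at 37.0 and 34.4 CPM in control and at 9.01 and 26.9 CPM in Brg1-cKO.

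Of the apical-basal polarity genes, which set the top and bottom of a new epithelium, 17 were tested. At an unadjusted p under 0.05, 4 were higher and 2 lower (5.44% and 12.9% of all tested genes). After adjustment 0 passed in edgeR's quasi-likelihood test. Of the 2 lower, Crb1 had 31 and 19 counts in control and 0 in both Brg1-cKO libraries. It passed the filter through the controls alone, so it had to be lower. The groups did not overlap for 7 higher and 5 lower polarity genes, where 17.5% and 34.5% of all tested genes lay wholly higher and wholly lower. Scrib stood at 284 and 291 CPM in control and 364 and 273 CPM in Brg1-cKO, and Llgl1 at 177 and 194 CPM against 219 and 113 CPM, so both overlapped. Dlg1 stood at 133 and 141 CPM in control and 152 and 164 CPM in Brg1-cKO. Cdc42, a GTPase that acts with the Par complex, was lower, at 237 and 232 CPM against 166 and 116 CPM (log2 fold change -0.73, SE 0.22, adjusted p = 0.208).

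Desmosome genes, which include the related desmosomal cadherins, were scarce apart from Dsp. Of the 11 listed, 7 were tested, with 0 at an unadjusted p under 0.05 in either direction. Over all tested genes, 5.44% were higher and 12.9% lower. Dsp, which encodes desmoplakin, stood at 124 and 121 CPM in control and at 115 and 198 CPM in Brg1-cKO. Dsg2, a desmosomal cadherin, stood at 15.8 and 14.1 CPM in control and at 27.8 and 30.0 CPM in Brg1-cKO (log2 fold change 0.95, SE 0.40, adjusted p = 0.338 in edgeR's quasi-likelihood test). Pkp2, a plakophilin, stood at 8.61 and 8.14 CPM against 17.9 and 27.9 CPM. Dsc2 stood at 6.90 and 4.80 CPM in control, and its Brg1-cKO libraries were at 0 and 7.47 CPM.

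Among 8 genes of cadherin shedding and turnover, 1 was higher and 2 lower at an unadjusted p under 0.05. Over all tested genes, 5.44% were higher and 12.9% lower. After adjustment 0 of the 8 passed in edgeR's quasi-likelihood test. Adam10, the protease that sheds the outer part of E- and N-cadherin, overlapped, at 215 and 209 CPM in control and 187 and 227 CPM in Brg1-cKO. Ncstn, a subunit of gamma-secretase, which cuts the remaining stub, stood at 98.7 and 101 CPM in control and at 165 and 181 CPM in Brg1-cKO (log2 fold change 0.79, SE 0.15, adjusted p = 0.166). Mmp14, a membrane metalloprotease, stood at 352 and 361 CPM in control and at 177 and 233 CPM in Brg1-cKO (log2 fold change -0.80, SE 0.18, adjusted p = 0.166).

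**Figure D4:**
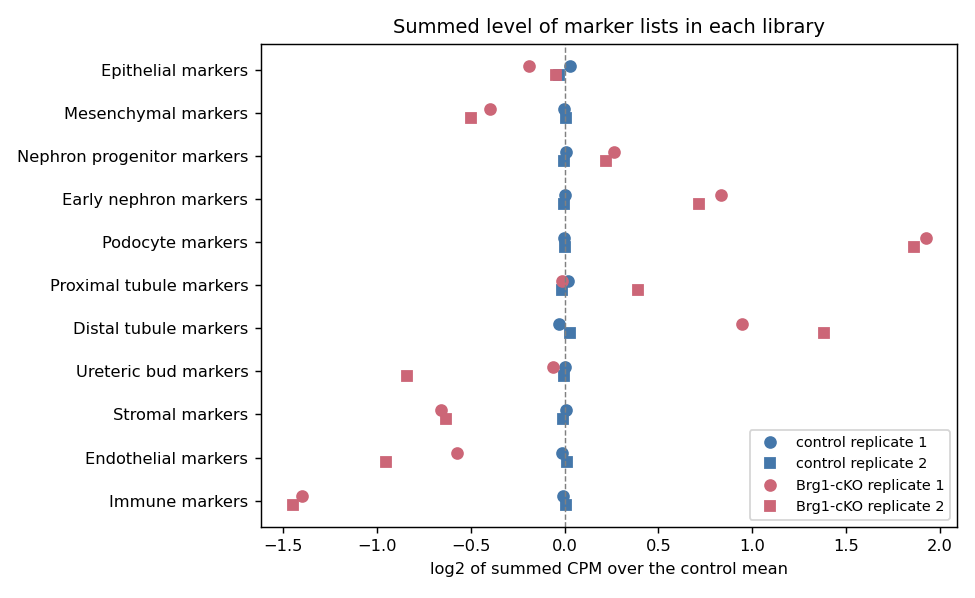
Summed CPM of each marker list in each library, as log2 over the control mean (horizontal axis, 0 is the control mean). Early nephron, podocyte and distal tubule lists lie above 0 in both Brg1-cKO libraries, stromal, endothelial, immune and mesenchymal lists lie below 0 in both, and the ureteric bud list is near 0 in replicate 1 and lower in replicate 2.

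The remaining marker sums gave the makeup of the libraries. Proximal tubule markers summed to 109 and 106 CPM in control and to 107 and 141 CPM in Brg1-cKO. Slc27a2, Spp2 and Fbp1 were at 0 in both Brg1-cKO libraries. Of the 10 listed, 7 were tested, with 4 log2 fold changes above 0, 3 below and a median of 0.60. At an unadjusted p under 0.05, 1 was higher and 0 lower (5.44% and 12.9% of all tested genes). After adjustment 0 passed in edgeR's quasi-likelihood test. Nephron progenitor markers summed to 2298 and 2282 CPM in control and to 2747 and 2668 CPM in Brg1-cKO. Wt1 among them stood at 365 and 374 CPM in control and at 663 and 620 CPM in Brg1-cKO. The 13 tested went both ways, with 7 log2 fold changes above 0, 6 below and a median of 0.050. Of these, 5 lay wholly higher and 3 wholly lower (17.5% and 34.5% of all tested genes). At an unadjusted p under 0.05, 2 were higher and 0 lower (5.44% and 12.9%). After adjustment 0 passed in edgeR's quasi-likelihood test. Immune markers had the lowest ratio of Brg1-cKO to control of the marker lists (0.373), at 178 and 181 CPM in control and 68.1 and 65.8 CPM in Brg1-cKO. Erythroid markers summed to 1.32 CPM or less in 3 libraries and to 29.6 CPM in Brg1-cKO replicate 1.

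On mm10 with GENCODE M21, Cdh2 lies on chromosome 18 from 16588877 to 16809246, Cdh6 on chromosome 15 from 13028701 to 13173675 and Cdh11 on chromosome 8 from 102632095 to 102785642. Cdh13 lies on chromosome 8 from 118283733 to 119324921 and Cdh16 on the same chromosome from 104601911 to 104624396. All 8 are protein-coding. The annotation puts 11 other genes within the spans of 4 of them, and 0 exonic bases are shared, so counting that ignored strand would not have split their exonic reads with those genes.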

How the data were processed

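The 4 files hold deposited counts of reads per gene, whole numbers from the authors' processing with 1 file for each library. Per the labels' protocols, the reads were single-end from strand-specific, randomly primed libraries. TopHat, DESeq2 and the build mm10 are named in the submitters' processing notes without versions. How reads were counted (tool, strand, annotation) is not given in the sources used here. Lines that name no gene held 32.4% and 31.8% of reads in control and 65.5% and 72.1% in Brg1-cKO, and they were left out.

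The counts were fitted over all genes with edgeR 4.0.16 in R 4.3.3: group as the only term, TMM scaling, the default filter (minimum count 10), robust dispersions, the quasi-likelihood F test and Benjamini-Hochberg adjustment at 0.05. CPM uses TMM-scaled library sizes, and SE is the log2 fold change over the root of F. Intervals on fold changes use the test's degrees of freedom. Poisson intervals (95%) and floors (3 counts) cover counting error only, since the labels name no molecular identifiers. Exon lengths and positions are from GENCODE M21, where all 8 cadherins matched. The functions were tested on simulated data.

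The cadherins, gene lists and alternatives were chosen with earlier results of these data known. The rule for named genes took the 8 cadherins, Smarca4, the 4 most abundant tested genes of each pathway list, the 2 most abundant of each marker list (the text gives some of these, and some genes that the rule names are left out) and the 2 nearest profiles of each cadherin at 10 CPM or more. Xist, Ddx3y, Cdh26, Klf8, Ctnna3 and the genes named as being at 0 were added after their values were seen. Alternatives were DESeq2 1.42.0, limma-voom (limma 3.58.1), the likelihood ratio test, RLE and total scaling, other filters, a replicate block and each library left out.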

Additional observations from a re-analysis of the deposited data

Results flagged for a closer look

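Uniquely aligned reads outside the counted features, which enter no comparison of the cadherins, made up 53.4% of uniquely aligned reads on average in Brg1-cKO, above the 15.9% of control. They can lie in introns, and each library of Brg1-cKO (49.5% and 57.2%) was above each control (16.5% and 15.4%).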

How the results depend on the processing

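Of 95 recomputed fold changes of the 8 cadherins, 80 kept their direction and side of the threshold, 14 kept their direction and passed it, and 1 turned: Cdh1 without control replicate 2, within a range of -0.22 to 0.022 over the libraries left out. With every gene tested, 0 passed in the quasi-likelihood test and also with RLE scaling, with total counts, with no filter on low counts and at 10 CPM in 2 libraries (where Cdh13 was not tested); 3328 genes had an unadjusted p under 0.05. Other tools made calls: 987 genes with DESeq2, among them 1 cadherin (Cdh4), 2471 with the likelihood ratio test, among them 2 (Cdh4 and Cdh13), and 112 with limma-voom, with 0 cadherins. Leaving out 1 library gave from 16 to 13262 genes and from 0 to 6 cadherins. The high counts came without a Brg1-cKO library, where the lone one was assumed to vary like the controls: 5 cadherins passed without replicate 1 and 6 without replicate 2. The cause was not tested. With the replicate number as a block, 156 genes and 0 cadherins passed. Same-numbered libraries deviated from their group means with a correlation of -0.016, and nothing in the labels says that the numbers pair them. The controls had a biological coefficient of variation of 0.174, and the Brg1-cKO pair one of 1.15.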

Other observations

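Within the span of Cdh11, outside its exons, the annotation places Gm45258 on the same strand. It had 43 and 45 counts in control, 0 in Brg1-cKO replicate 1 and 147 in replicate 2, although Cdh11 itself was lower in both Brg1-cKO libraries. Gm45257, also within Cdh11, had 114 and 78 counts in control and 0 in both Brg1-cKO libraries. Both were picked after their values were seen and were not tested apart from the fit over all genes.

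Several scarcer genes of the lists stood apart between the groups, and they were also named after their values were seen. Crb2, an apical polarity gene of podocytes and early nephron, stood at 27.3 and 30.3 CPM in control and at 97.1 and 113.7 CPM in Brg1-cKO. Grhl1, a grainyhead factor of epithelium, stood at 10.5 and 9.41 CPM against 42.5 and 35.7 CPM. Ehf and Elf3, epithelial ETS factors, had 6.23 and 9.96 CPM and 3.38 and 5.11 CPM in control, and both were at 0 counts in both Brg1-cKO libraries. Ctnnd1, which encodes the p120 catenin that steadies cadherins at the membrane, overlapped between the groups instead. Its levels were 21.5 and 22.8 CPM in control and 3.49 and 23.7 CPM in Brg1-cKO. The adjusted threshold of 0.05 was passed by none of these in the quasi-likelihood test of edgeR.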
